A study of Rattus norvegicus with 12 samples.

Results

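Satellite glia wrap the cell bodies of sensory neurons in the dorsal root ganglion, and 10 genes that mark or serve these cells were followed through age and caloric restriction in the rat. They are the glutamate transporter gene Slc1a3, the glutamine synthetase gene Glul, the connexin gene Gja1, the receptor genes Ednrb, Erbb3 and Ptprz1, the cadherin gene Cdh19, the transcription factor gene Sox10, the fatty acid binding protein gene Fabp7 and the secreted protein gene Scrg1. The genes were taken by name, through the RefSeq symbol of each probe's accession. The rule used no measured value, but the list was chosen with earlier results of these data known. All 10 were on the array, with 11 of its 30367 gene probes, because Slc1a3 had 2 probes and the other 9 genes had 1 each. All 10 passed the filter on dim probes and stood among 20849 genes tested.

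The RNA came from dorsal root ganglia at level L6 in male rats of the inbred Fischer 344 strain, with 4 arrays in each of 3 groups. The group old_CR was 25 to 28 months old and had received food on 3 days of the week from 6 weeks of age, at about 40% caloric restriction relative to the old rats fed freely. Rats of old_AL, also aged 25 to 28 months, and those of young_AL, aged 6 months, ate ad libitum. Each array was labelled with Cy3 alone, and the design text gives 4 rats a group, although no label ties an array to a rat.

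Values below are log2 of the processed signal relative to the same array's 75th percentile over gene spots, so 0 is that percentile and a step of 1 is a doubling. They compare arrays for the same probe, and levels of different genes are not set against each other. A difference was called where the adjusted p of limma, a linear model that shares its estimate of spread across genes, was under 0.05 over all genes tested. One old_AL array, number 1, differed from the rest of the set: its scan had a 75th percentile of 7662 (2634 to 3110 elsewhere), 4369 unevenly lit spots (1 to 215 elsewhere) and a median correlation of 0.929 with the remaining arrays (0.971 to 0.994 among those). The tests were therefore fitted on the other 11 arrays, and the fit of all 12 is given beside them, with a median residual SD of 0.10 on 11 arrays and 0.36 on 12. Of the fitted arrays, old_AL 4 stood furthest from the rest, with the correlation of 0.971 and 84.1% of spots well above background, the highest share. Its ratio of 75th to 25th percentile was 34.5 (60.5 to 72.8 on the other fitted arrays). It stayed in the fit, and among the alternatives below the array weights gave it the lowest weight, 0.22. The young_AL arrays lay on a slide of their own with its own scan, so effects of age and of the slide cannot be told apart here. On the slide of the old rats, old_CR and old_AL lay in different rows, so diet and row cannot be told apart either.

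The ganglion label was checked on markers. All 12 listed satellite glia markers were measured, and 11 were well above background on all 11 arrays, but 10 of the 12 are the genes described here. The other 2 were Apoe, above background on all 11, and the potassium channel gene Kcnj10, dim and above background on 10. All 11 sensory neuron markers on the array were above background on all 11 arrays, as were all 9 of myelinating Schwann cells. Of 7 markers of glia of the central nervous system on the array, Aqp4, Opalin, Aldh1l1 and Gfap were well above background on all 11 arrays, Slc1a2 on 8, Mog on 2 and Olig2 on 0.

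As background, satellite glia arise from the neural crest, as Schwann cells do, and take up glutamate released around the cell body, convert it to glutamine and couple to their neighbours through gap junctions. SOX10 is required for the peripheral glial lineage, and neuregulin signals to these cells through ERBB3. Sox10, Erbb3 and Cdh19 are also known from Schwann cells, so they are not marks of satellite glia alone. Whether the other genes mark satellite glia alone was not tested. In whole ganglia fewer cells of a type and less RNA per cell cannot be told apart.

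SOX proteins, SOX10 among them, bind short cores such as ACAATG and ACAAAG. Both were searched, on both strands, in the 250 bases before the start of 7 of the genes, from RefSeq's promoter table of the assembly GRCr8; the motifs begin with the same letters. The letters ACAAAG stood in 2 of the 7, Slc1a3 and Scrg1, and 25.3% of 33469 RefSeq promoters of the same length held at least a single match, so the letters describe these windows and are no evidence of binding. The table held the promoters of Slc1a3 (3 starts), Glul, Gja1, Ednrb, Cdh19, Fabp7 and Scrg1. Shown are the windows of 3 genes with called differences below, each 5′ to 3′ on the minus strand and ending next to the start of transcription, with any match in capitals.
Slc1a3, chr2:59557809-59558058: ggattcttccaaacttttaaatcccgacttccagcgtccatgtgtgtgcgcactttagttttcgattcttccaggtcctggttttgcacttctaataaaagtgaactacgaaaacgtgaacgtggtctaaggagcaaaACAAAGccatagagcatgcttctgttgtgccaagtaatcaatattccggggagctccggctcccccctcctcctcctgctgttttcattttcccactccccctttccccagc
Ednrb, chr15:87086766-87087015: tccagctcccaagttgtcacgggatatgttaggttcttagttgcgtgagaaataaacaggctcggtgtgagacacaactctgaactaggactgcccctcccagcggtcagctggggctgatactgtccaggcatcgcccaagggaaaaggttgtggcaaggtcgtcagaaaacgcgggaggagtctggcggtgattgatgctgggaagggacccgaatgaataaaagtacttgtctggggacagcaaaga
Scrg1, chr16:37799011-37799260: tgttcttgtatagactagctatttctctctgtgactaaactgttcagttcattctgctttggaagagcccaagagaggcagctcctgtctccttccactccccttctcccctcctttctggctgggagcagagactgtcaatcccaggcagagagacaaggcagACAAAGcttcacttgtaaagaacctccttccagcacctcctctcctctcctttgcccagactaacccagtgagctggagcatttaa

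In Slc1a3 the match began 112 bases before the most upstream listed start, on the strand of the gene. In Scrg1 it began 86 bases before the start, on the same strand as well, and the Ednrb window held none of the searched letters.

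Restriction was compared with free feeding in old rats to ask which of these genes differ with diet. Slc1a3 fell by 0.36 in old_CR on the log2 scale, and the other 9 genes did not pass. That is 1 of 10 genes lower and 0 higher, where 1.06% of all genes were called and 0.796% were lower. The median difference of the 10 genes was −0.12, against −0.054 over all genes, and on 12 arrays these medians were −0.071 and 0.042. The 4 genes Slc1a3, Erbb3, Cdh19 and Fabp7 were lower in every old_CR array than in every array of old_AL 2 to 4, and 23.5% of all genes had groups that did not overlap, 15.3% of all genes with old_CR lower. An unadjusted p under 0.05 was found for 3 of the 10, and for 26.4% of all genes. On 12 arrays 0 of the 10 passed (0.00478% of all genes did), with 1 at an unadjusted p under 0.05 (5.96% of all genes) and a smallest adjusted p of 0.644.

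Against young rats, where age and diet both differ, old_CR was lower in 5 genes, Slc1a3, Ednrb, Fabp7, Scrg1 and Sox10, with differences of −0.60 to −0.31 on the log2 scale, and higher in 0. The share called among all genes was 2.41%, with 1.63% lower. The median over the 10 genes was −0.36, against −0.017 over all genes. For 7 of them, these 5 with Erbb3 and Ptprz1, each old_CR array was below each young_AL array, where 15.8% of all genes did not overlap and 10.2% were lower. An unadjusted p under 0.05 was found for 7 of the 10, against 18.3% of all genes. On 12 arrays these differences were the same, since old_AL 1 enters neither group, but the wider shared spread left 0 of 10 called (0.0191% of all genes), with 5 at an unadjusted p under 0.05 (2.72% of all genes) and a smallest adjusted p of 0.340.

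Old rats were set against young rats under free feeding to ask which genes differ with age. Scrg1, Ptprz1 and Ednrb fell in old_AL, with log2 differences of −0.79, −0.52 and −0.30, and 7 genes did not pass. That is 3 of 10 lower and 0 higher, where 3.24% of all genes were called and 1.25% were lower. The median difference was −0.12 over the 10 genes and 0.035 over all, and with old_AL 1 included these were −0.32 and −0.056. Groups did not overlap for 5 genes, 4 with old_AL lower and Cdh19 with old_AL higher, against 19.6% of all genes, 7.67% lower and 11.9% higher. Unadjusted p values under 0.05 were found for 5 of the 10 and for 23.1% of all genes. On 12 arrays 0 of 10 passed (0.0191% of all genes did), with 3 at an unadjusted p under 0.05 (6.71% of all genes) and a smallest adjusted p of 0.242. The 3 comparisons share arrays, so their differences are not independent of each other.

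**Figure D1:**
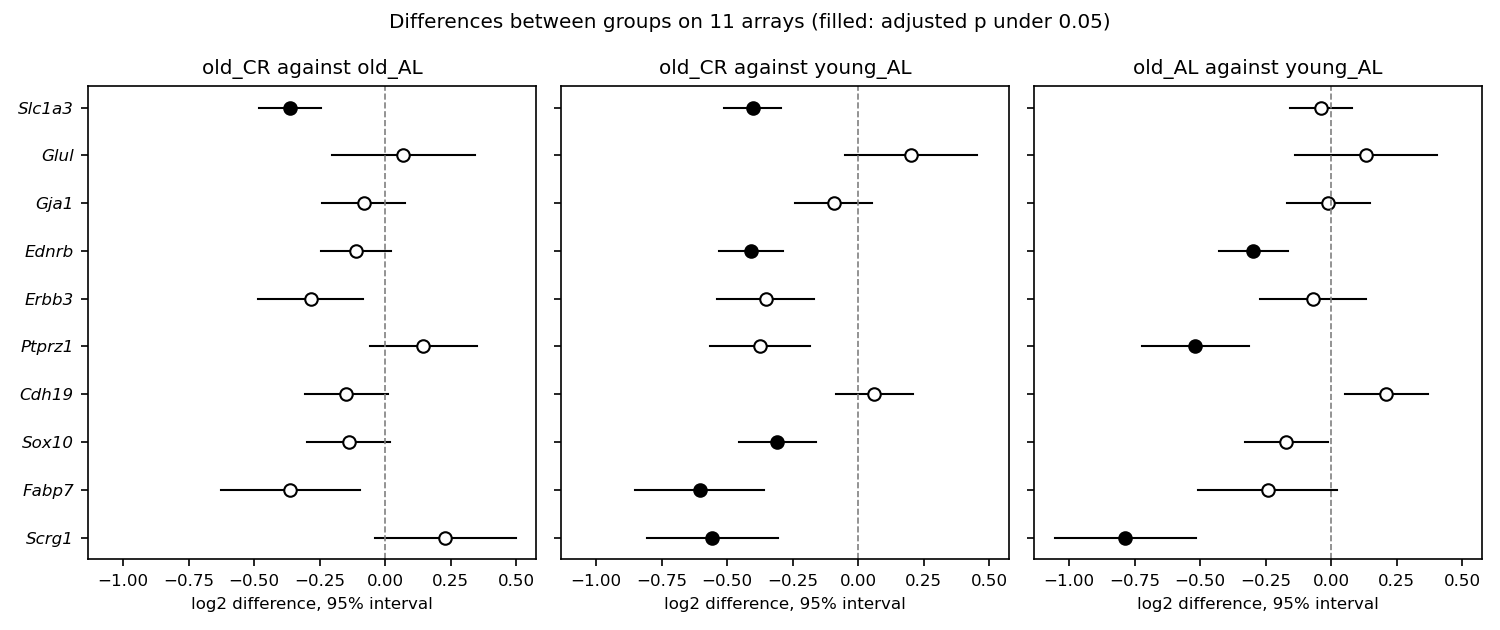
Log2 difference of each of the 10 genes (rows) in the 3 comparisons (panels), fitted on 11 arrays, with 95% intervals as bars and filled points where the adjusted p was under 0.05. The filled points all lie left of 0: 1 gene for old_CR against old_AL, 5 for old_CR against young_AL and 3 for old_AL against young_AL.

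**Figure D2:**
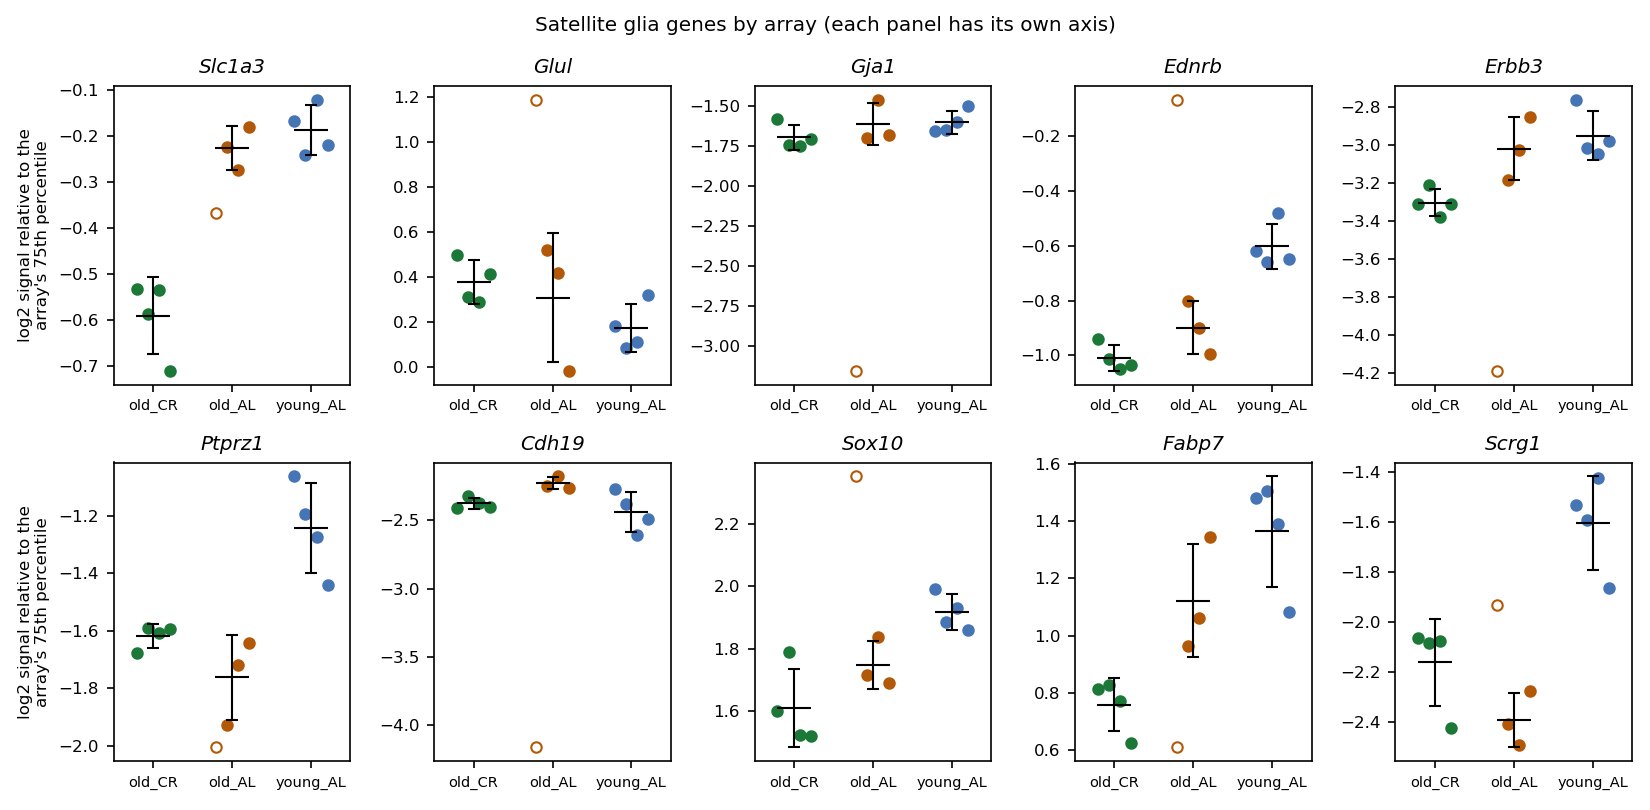
Log2 signal relative to the array's 75th percentile (vertical axis, a scale of its own in each panel) for the 10 genes, with a point per array and the mean ± SD of each group as bars. The open circle is old_AL 1, which is left out of the bars and lies far from old_AL 2 to 4 for Gja1, at −3.15, and for Cdh19, at −4.17.

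Slc1a3 encodes the transporter GLAST, which clears glutamate into glia. Its brighter probe read −0.53, −0.59, −0.53 and −0.71 in old_CR arrays 1 to 4, against −0.22, −0.27 and −0.18 in old_AL 2 to 4 and −0.17, −0.24, −0.12 and −0.22 in young_AL, while old_AL 1 read −0.37. Every old_CR array was lower than every array of the other groups, old_AL 1 included, and old_AL 2 to 4 overlapped young_AL. The order of the group means was old_CR at −0.59 ± 0.084 (SD, n = 4), old_AL at −0.23 ± 0.047 (n = 3) and young_AL at −0.19 ± 0.054 (n = 4), and only the first step exceeded the spread. Old_CR differed from old_AL by −0.36 ± 0.053 (SE), a level 1.29-fold lower, with a limma adjusted p of 0.0289, and of 0.644 with 12 arrays. Against young_AL it differed by −0.40 ± 0.049, 1.32-fold lower (limma adjusted p = 0.00995, and 0.340 with 12 arrays). The old_AL and young_AL groups differed by −0.038 ± 0.053, with a 95% interval of −0.16 to 0.080 and an adjusted p of 0.679 from limma.

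A second Slc1a3 probe, of a single spot, gave dimmer signal. It read −4.28, −4.27, −4.26 and −4.37 in old_CR, against −3.92, −3.91 and −3.61 in old_AL 2 to 4 and −3.97, −3.97, −3.96 and −4.12 in young_AL, and on old_AL 1, at −6.08, it was not well above background. On this probe too the old_CR arrays lay below all young_AL arrays and below old_AL 2 to 4. The difference between old_CR and old_AL was −0.48 ± 0.078 (limma adjusted p = 0.0382), that between old_CR and young_AL was −0.29 ± 0.072 (adjusted p = 0.0712, limma), and that between old_AL and young_AL was 0.19 ± 0.078 (0.199). The old_AL against young_AL difference thus had opposite signs on the 2 probes, and neither passed. The diet call at the brighter probe held in 5 of 11 fits that left out an array; it ended on leaving out any 1 of the 4 old_CR arrays, old_AL 4 or young_AL 3, at limma adjusted p of 0.0330 to 0.0956 over the 11 fits. The call against young_AL held in all 11, at 0.0109 to 0.0408.

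**Figure D3:**
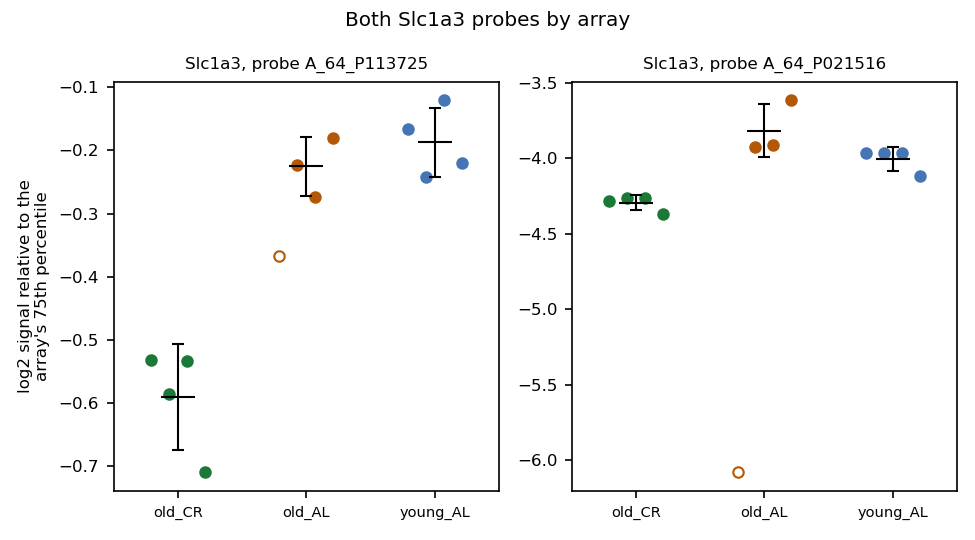
Log2 signal relative to the array's 75th percentile (vertical axis, separate scales) for the 2 Slc1a3 probes, with a point per array, bars for the mean ± SD of each group, and old_AL 1 open and left out of the bars. On both probes the 4 old_CR arrays lie below young_AL and old_AL 2 to 4, and old_AL 1 reads −6.08 on the dimmer probe.

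Glul encodes glutamine synthetase, which turns the glutamate taken up into glutamine. It read 0.50, 0.31, 0.29 and 0.41 in old_CR, against 0.52, 0.42 and −0.019 in old_AL 2 to 4 and 0.18, 0.082, 0.11 and 0.32 in young_AL, with old_AL 1 at 1.19. The groups overlapped in all 3 comparisons, and old_AL 4 was the lowest of the 12 arrays while old_AL 1 was the highest. Group means were 0.38 ± 0.10 in old_CR, 0.31 ± 0.29 in old_AL and 0.17 ± 0.11 in young_AL (SD), and no neighbouring pair differed beyond its spread. The difference between old_CR and young_AL was 0.20 ± 0.11 with a 95% interval of −0.049 to 0.46 (limma adjusted p = 0.384), and between old_CR and old_AL it was 0.070 ± 0.12, interval −0.20 to 0.34 (limma adjusted p = 0.734). Old_AL against young_AL gave 0.13 ± 0.12, interval −0.14 to 0.41 (0.523).

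Gja1 encodes a connexin, a subunit of the gap junctions that couple satellite glia. Its probe was printed in 10 spots per array, and the SD of single spots on log2 values was 0.029 to 0.075 within an array. The residual SD between arrays was 0.093, but it is of values averaged over the spots and so is not a like measure. The arrays read −1.58, −1.74, −1.75 and −1.70 in old_CR, against −1.70, −1.46 and −1.68 in old_AL 2 to 4 and −1.65, −1.65, −1.60 and −1.499 in young_AL, and old_AL 1 read −3.15. All groups overlapped, and the group means of old_CR, old_AL and young_AL were −1.69 ± 0.079, −1.61 ± 0.13 and −1.60 ± 0.073 (SD). The 95% intervals were −0.24 to 0.075 for old_CR against old_AL, −0.24 to 0.053 for old_CR against young_AL and −0.17 to 0.15 for old_AL against young_AL. The limma adjusted p values were 0.461, 0.5 and 0.936 in that order.

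The wider set of glutamate and glutamine genes (transporters, glutaminases, aminotransferases) held 11 tested genes, and 0 passed in any comparison, with medians of 0.050 for old_CR against old_AL, 0.066 for old_CR against young_AL and 0.0077 for old_AL against young_AL, the last of which was −0.043 after quantile normalization; on 12 arrays the first and last were 0.14 and −0.013. Among them Glud1, the glutamate dehydrogenase gene, had the smallest p for old_CR against old_AL, at 0.12 ± 0.035 (limma adjusted p = 0.0849). Of 10 tested connexin, pannexin and tight junction scaffold genes, 0 passed in any comparison. The connexin gene Gjb2 had the smallest p for old_AL against young_AL, 1.15 ± 0.29 (limma adjusted p = 0.0663). Genes with unadjusted p under 0.05 numbered 2, 1 and 1 in the glutamate set and 5, 2 and 2 in the gap junction set, for old_CR against old_AL, old_CR against young_AL and old_AL against young_AL, and 0 passed on 12 arrays. Of all genes, 26.4%, 18.3% and 23.1% had an unadjusted p under 0.05 in that order, and 1.06%, 2.41% and 3.24% were called on 11 arrays.

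Ednrb encodes the endothelin receptor type B, which glia of the ganglion carry. It read −0.94, −1.01, −1.05 and −1.03 in old_CR, against −0.80, −0.90 and −0.99 in old_AL 2 to 4 and −0.62, −0.66, −0.48 and −0.65 in young_AL. Old_CR and old_AL 2 to 4 lay wholly below young_AL and overlapped each other, while old_AL 1, at −0.067, was above all other arrays. In old_CR the mean was −1.01 ± 0.047, in old_AL −0.90 ± 0.10 and in young_AL −0.60 ± 0.083 (SD, n = 4, 3 and 4). Old_CR was 1.33-fold lower than young_AL, at −0.41 ± 0.055 (limma adjusted p = 0.0126, and 0.99997 with 12 arrays), and this call held in 11 of 11 fits without an array. Old_AL was 1.23-fold lower than young_AL, at −0.30 ± 0.059 (adjusted p = 0.0365 in limma); the call held in 1 of 11 such fits, that without old_AL 2, and on 12 arrays the difference was −0.089 with an adjusted p of 0.763. The other 10 fits gave limma adjusted p of up to 0.0857. Old_CR and old_AL differed by −0.11 ± 0.059 (95% interval −0.24 to 0.021, limma adjusted p = 0.254).

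Of 5 other tested genes of the endothelin system, 0 passed in any comparison on 11 or 12 arrays, and 3, 1 and 3 had unadjusted p under 0.05 on 11 arrays for old_CR against old_AL, old_CR against young_AL and old_AL against young_AL. Such a p was found for 26.4%, 18.3% and 23.1% of all genes in that order, and 1.06%, 2.41% and 3.24% of all genes were called on 11 arrays. The ligand gene Edn1 had the smallest p of the 5 genes, for old_CR against old_AL. It read −6.71, −6.29, −6.88 and −6.55 in old_CR, against −5.56, −5.59 and −4.73 in old_AL 2 to 4 and −5.51, −5.87, −5.81 and −6.49 in young_AL, a difference of −1.31 ± 0.27 between old_CR and old_AL (limma adjusted p = 0.0541, and 0.644 on 12 arrays). The converting enzyme gene Ece1 differed by −0.21 ± 0.065 in the same comparison (limma adjusted p = 0.0946).

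Erbb3 encodes the neuregulin receptor subunit ERBB3. Arrays of old_CR read −3.31, −3.21, −3.38 and −3.31, against −3.18, −3.02 and −2.85 in old_AL 2 to 4 and −2.76, −3.01, −3.05 and −2.98 in young_AL, and old_AL 1 read −4.19. The old_CR arrays were lower than all young_AL arrays and than old_AL 2 to 4, though not than old_AL 1, and old_AL 2 to 4 overlapped young_AL. The means were −3.30 ± 0.070 in old_CR, −3.02 ± 0.17 in old_AL and −2.95 ± 0.13 in young_AL (SD). Neither difference of old_CR passed: it was −0.28 ± 0.090 against old_AL (limma adjusted p = 0.102) and −0.35 ± 0.083 against young_AL (adjusted p = 0.0621, limma). The second of these passed in 2 of 11 fits without an array and in 5 of 13 other processings. Old_AL against young_AL gave −0.069 ± 0.090 (interval −0.27 to 0.13, limma adjusted p = 0.661).

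Among 8 other tested genes of neuregulin signalling, 0 passed for old_CR against old_AL, 1 was lower in old_CR than in young_AL and 1 was lower in old_AL than in young_AL. The shares of all genes called in these comparisons were 1.06%, 2.41% and 3.24%. Adam17, which encodes a protease that sheds membrane-bound growth factors, read −3.67, −3.49, −3.81 and −3.52 in old_CR, against −3.02, −3.06, −3.13 and −3.21 in young_AL. It fell by 0.52 ± 0.083 in old_CR (limma adjusted p = 0.0188, and 0.99997 on 12 arrays), and the call held in 7 of 11 fits without an array. The ligand gene Nrg1 read −1.02, −0.98 and −1.04 in old_AL 2 to 4, against −0.78, −0.83, −0.74 and −0.75 in young_AL, and fell by 0.24 ± 0.041 (limma adjusted p = 0.0270, and 0.517 on 12 arrays), in 6 of 11 such fits. In old_CR Nrg1 read −0.91, −0.92, −0.85 and −0.79, a difference of 0.14 ± 0.041 from old_AL (limma adjusted p = 0.0853). The medians of the 8 genes were −0.12, −0.17 and −0.079 for old_CR against old_AL, old_CR against young_AL and old_AL against young_AL; on 12 arrays the last was −0.23, and the first was 0.11 on 12 arrays and 0.058 after quantile normalization.

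Ptprz1 encodes a receptor tyrosine phosphatase that binds pleiotrophin, midkine and cell adhesion molecules. Its signal was −1.68, −1.59, −1.61 and −1.59 in old_CR, against −1.93, −1.72 and −1.64 in old_AL 2 to 4 and −1.06, −1.19, −1.27 and −1.44 in young_AL. Every old array was below every young one, old_AL 1 at −2.005 included, and the 2 old groups overlapped. The means were −1.62 ± 0.041 in old_CR, −1.76 ± 0.15 in old_AL, the lowest, and −1.24 ± 0.16 in young_AL (SD), and the step between the old groups was not beyond the spread. Old_AL was 1.43-fold lower than young_AL, at −0.52 ± 0.091 (limma adjusted p = 0.0278, and 0.242 with 12 arrays). This call held in 7 of 11 fits without an array and ended without old_AL 2, old_AL 3, young_AL 2 or young_AL 3, with limma adjusted p of 0.0233 to 0.0782 over the 11. Old_CR differed from young_AL by −0.37 ± 0.084 (limma adjusted p = 0.0534), which missed the threshold and passed in 3 of the 11 fits without an array, and from old_AL by 0.14 ± 0.091 (limma adjusted p = 0.325).

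Of 9 tested ligands and partners of this phosphatase, 0 passed for old_CR against old_AL, 1 was lower in old_CR than in young_AL, and 1 was higher and 1 lower in old_AL than in young_AL. The shares of all genes called in these comparisons were 1.06%, 2.41% and 3.24%. The matrix protein gene Tnc read −3.59, −3.50, −3.78 and −4.06 in old_CR, against −3.73, −3.50 and −3.49 in old_AL 2 to 4 and −2.56, −2.62, −2.70 and −3.24 in young_AL. Tnc fell in both old groups relative to young_AL, with differences of −0.95 ± 0.17 in old_CR (limma adjusted p = 0.0267, 5 of 11 fits without an array) and −0.79 ± 0.18 in old_AL (adjusted p = 0.0494, 1 of 11, limma). The midkine gene Mdk read −1.52, −1.55, −1.72 and −1.72 in old_CR, against −1.41, −1.32 and −1.24 in old_AL 2 to 4 and −1.63, −1.69, −1.66 and −1.71 in young_AL. It was higher in old_AL than in young_AL by 0.35 ± 0.063 (limma adjusted p = 0.0294, 6 of 11 fits without an array), and old_CR differed from old_AL by −0.31 ± 0.063 (limma adjusted p = 0.0541). On 12 arrays 0 of the 9 passed in any comparison, with limma adjusted p of 0.99997 and 0.468 for Tnc in old_CR and in old_AL against young_AL, and of 0.468 for Mdk in old_AL against young_AL.

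Cdh19 encodes a type II cadherin of the neural crest lineage. It read −2.41, −2.32, −2.37 and −2.40 in old_CR, against −2.25, −2.18 and −2.26 in old_AL 2 to 4 and −2.27, −2.38, −2.61 and −2.49 in young_AL, with old_AL 1 at −4.17. Without old_AL 1, old_AL lay above all young_AL arrays by a narrow margin and above all old_CR arrays, and old_CR overlapped young_AL. The means were −2.38 ± 0.039, −2.23 ± 0.046 and −2.44 ± 0.14 (SD) in old_CR, old_AL and young_AL. None of the differences passed: −0.15 ± 0.071 for old_CR against old_AL, 0.063 ± 0.066 for old_CR against young_AL and 0.21 ± 0.071 for old_AL against young_AL, with limma adjusted p of 0.213, 0.667 and 0.125. On 12 arrays the first and last had the opposite sign, at 0.34 and −0.27 (limma adjusted p = 0.659 and 0.668).

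Of 9 other tested type II cadherin genes, 0 passed for old_CR against old_AL, 2 were lower in old_CR than in young_AL and 2 were lower in old_AL than in young_AL. The shares of all genes called in these comparisons were 1.06%, 2.41% and 3.24%. Cdh6 was called in both comparisons with young_AL. It read −0.25, −0.22, −0.29 and −0.27 in old_CR, against −0.31, −0.38 and −0.43 in old_AL 2 to 4 and 0.27, −0.073, 0.37 and 0.17 in young_AL, and the differences were −0.44 ± 0.083 in old_CR (limma adjusted p = 0.0310, 4 of 11 fits without an array) and −0.56 ± 0.090 in old_AL (limma adjusted p = 0.0222, 10 of 11). Cdh9 fell by 0.51 ± 0.10 in old_CR against young_AL (limma adjusted p = 0.0310, 4 of 11), and Cdh10 fell by 0.27 ± 0.053 in old_AL against young_AL (limma adjusted p = 0.0364, 1 of 11). The medians of the 9 were 0.082 for old_CR against old_AL, −0.14 for old_CR against young_AL and −0.22 for old_AL against young_AL, the first of which was −0.0086 after normexp background correction. On 12 arrays the first and last were 0.34 and −0.51, and 0 of the 9 passed.

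Sox10 encodes the transcription factor that peripheral glia need to form and to keep their identity. Its signal was 1.60, 1.79, 1.52 and 1.52 in old_CR, against 1.71, 1.84 and 1.69 in old_AL 2 to 4 and 1.99, 1.89, 1.93 and 1.86 in young_AL, and 2.35 on old_AL 1. All old_CR arrays and old_AL 2 to 4 lay below all young_AL arrays, old_CR overlapped old_AL, and old_AL 1 was above all others. The means, from the lowest, were 1.61 ± 0.13 in old_CR, 1.75 ± 0.078 in old_AL and 1.92 ± 0.058 in young_AL (SD). Old_CR was 1.24-fold lower than young_AL, at −0.31 ± 0.065 (limma adjusted p = 0.0448, and 0.99997 with 12 arrays), a call that held in 2 of 11 fits without an array, those without old_CR 2 and without old_AL 4. The other 2 differences, −0.14 ± 0.070 for old_CR against old_AL and −0.17 ± 0.070 for old_AL against young_AL, did not pass (limma adjusted p = 0.236 and 0.191).

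Among 9 other tested transcription factor genes of neural crest and glia, 0 passed for old_CR against old_AL (1.06% of all genes did) or for old_AL against young_AL (3.24% did), and 1 was lower in old_CR than in young_AL (2.41% of all genes were called). That was Sox2, a factor of immature and satellite glia, which read 1.65, 1.79, 1.74 and 1.58 in old_CR, against 2.13, 1.98, 2.02 and 1.998 in young_AL, a difference of −0.34 ± 0.065 (limma adjusted p = 0.0334, and 0.99997 on 12 arrays) that held in 4 of 11 fits without an array and turned to 0.17 with the mean of the gene's probes. Sox8, a close relative of Sox10, differed by −0.57 ± 0.14 for old_CR against old_AL and by 0.56 ± 0.14 for old_AL against young_AL (limma adjusted p = 0.0649 and 0.0569), and neither passed.

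Fabp7 encodes the brain type fatty acid binding protein, a carrier of lipids in immature and satellite glia. It read 0.81, 0.83, 0.77 and 0.63 in old_CR, against 0.96, 1.06 and 1.34 in old_AL 2 to 4 and 1.48, 1.504, 1.39 and 1.08 in young_AL, with old_AL 1 at 0.61. Every old_CR array was below every young_AL array and below old_AL 2 to 4, and old_AL 1 was the lowest of all 12. The means were 0.76 ± 0.092 in old_CR, 1.12 ± 0.20 in old_AL and 1.36 ± 0.19 in young_AL (SD), with old_AL and young_AL overlapping. Old_CR was 1.52-fold lower than young_AL, at −0.60 ± 0.11 (limma adjusted p = 0.0273, and 0.738 with 12 arrays), in 4 of 11 fits without an array; the call ended on leaving out any 1 of the old_CR arrays or young_AL 1, 2 or 3. Old_CR against old_AL gave −0.36 ± 0.12 and old_AL against young_AL −0.24 ± 0.12, and neither passed (limma adjusted p = 0.109 and 0.253). Of 5 other tested fatty acid binding protein genes, 0 passed in any comparison, and Fabp4, a gene of fat cells and vessels, had the smallest p, at 1.44 ± 0.42 for old_AL against young_AL (limma adjusted p = 0.0891). Of all genes, 1.06% were called for old_CR against old_AL, 2.41% for old_CR against young_AL and 3.24% for old_AL against young_AL.

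Scrg1 encodes a small secreted protein first known from a transcript raised in scrapie-infected brain. It read −2.06, −2.08, −2.07 and −2.42 in old_CR, against −2.41, −2.49 and −2.27 in old_AL 2 to 4 and −1.53, −1.59, −1.43 and −1.87 in young_AL, and −1.93 on old_AL 1. All old arrays, old_AL 1 included, lay below all young_AL arrays, and old_CR overlapped old_AL through old_CR 4. Means were −2.16 ± 0.18 in old_CR, −2.39 ± 0.11 in old_AL, again the lowest, and −1.60 ± 0.19 in young_AL (SD). Old_AL was 1.72-fold lower than young_AL, at −0.79 ± 0.12 (limma adjusted p = 0.0188, and 0.341 with 12 arrays), the largest difference of the 10 genes in the 3 comparisons on 11 arrays. It held in 9 of 11 fits without an array and ended without young_AL 2 or young_AL 3, at up to 0.0598. Old_CR was 1.47-fold lower than young_AL, at −0.56 ± 0.11 (limma adjusted p = 0.0359, and 0.800 with 12 arrays), in 3 of 11 such fits, those without old_AL 2, old_AL 4 or young_AL 4. Old_CR against old_AL gave 0.23 ± 0.12, interval −0.039 to 0.50 (limma adjusted p = 0.246).

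Another 17 genes listed for satellite glia were tested beside the 10. For old_CR against old_AL 0 of 17 passed (1.06% of all genes did), with 10 at an unadjusted p under 0.05, where 26.4% of all genes were. Against young_AL, 3 were lower in old_CR (Ttyh1, Gpr37l1 and Dbi, beside 1.63% of all genes) and 1 in old_AL (Ttyh1, beside 1.25% of all genes), and 0 were higher. Their medians were −0.16 for old_CR against old_AL, −0.27 for old_CR against young_AL and −0.084 for old_AL against young_AL. On 12 arrays 0 passed in any comparison, and the first and last medians were −0.26 and −0.0046. Ttyh1, an anion channel gene, read −0.58, −0.57, −0.63 and −0.64 in old_CR, against −0.57, −0.45 and −0.31 in old_AL 2 to 4 and −0.16, −0.22, −0.20 and −0.20 in young_AL. It differed by −0.41 ± 0.051 in old_CR against young_AL (limma adjusted p = 0.0105, 11 of 11 fits without an array) and by −0.25 ± 0.056 in old_AL against young_AL (limma adjusted p = 0.0478, 1 of 11). Gpr37l1, an orphan receptor gene of glia, read 2.26, 2.24, 2.24 and 2.19 in old_CR, against 2.54, 2.51, 2.56 and 2.43 in young_AL, and fell by 0.28 ± 0.041 (limma adjusted p = 0.0158, 9 of 11). Dbi, the diazepam binding inhibitor, fell by 0.33 ± 0.066 in old_CR against young_AL (limma adjusted p = 0.0358, 3 of 11).

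Markers of other cells moved beside these genes, and their part in the results was not tested. Over all genes, 1.06% were called for old_CR against old_AL, 2.41% for old_CR against young_AL and 3.24% for old_AL against young_AL. Of 9 myelinating Schwann cell markers, 1 passed, Pmp22, which fell by 0.30 ± 0.064 in old_CR against young_AL (limma adjusted p = 0.0491, 3 of 11 fits without an array). Their summed signal, on the same log2 scale, was 6.99 to 7.20 in old_CR, 6.99 to 7.27 in old_AL 2 to 4 and 7.24 to 7.41 in young_AL, with old_AL 1 above them all at 7.64. Their medians were −0.068, −0.35 and −0.21 for old_CR against old_AL, old_CR against young_AL and old_AL against young_AL, the first of which was 0.034 after median centring; on 12 arrays the first and last were 0.0081 and −0.085. Scn7a, Ncmap and Gjc3 had no named probe here, and the summed signal of 7 non-myelinating Schwann cell markers was 4.08 to 4.15 in old_CR, 4.11 to 4.16 in old_AL 2 to 4 and 4.12 to 4.22 in young_AL, and 5.56 on old_AL 1. Such sums are of linear signal and follow the brightest markers. On old_AL 1 the median deviation of single markers from their means over the 11 arrays was −0.28 for myelinating and −1.06 for non-myelinating Schwann cells, and 0.19 for sensory neurons. The medians of 11 sensory neuron markers were −0.082, −0.090 and −0.0087 in the same order, the first of which was 0.020 after median centring, with summed signal of 9.25 to 9.34, 9.33 to 9.41 and 9.33 to 9.42 in old_CR, old_AL 2 to 4 and young_AL, and 9.43 on old_AL 1; on 12 arrays the last median was −0.041. The neurofilament genes Nefl and Nefh were lower in both old groups than in young_AL, with differences of −0.31 to −0.21. Isl1, a transcription factor gene of sensory neurons, fell by 0.19 ± 0.041 in old_AL against young_AL (passed in 0 of 11 fits without an array) and was higher in old_CR than in old_AL by 0.31 ± 0.041 (passed in 5 of 11). The limma adjusted p values of Isl1 were 0.0480 and 0.0289, and those of Nefl and Nefh were 0.0269 and 0.0401 for old_CR and 0.0133 and 0.0359 for old_AL. In fits without an array, Nefl passed in 3 of 11 for old_CR and 11 of 11 for old_AL, and Nefh in 2 and 1 of 11.

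Of 10 macrophage markers, all above background on 11 arrays, Cd163 and Mrc1 were higher in old_AL than in young_AL, by 1.81 ± 0.35 and 1.13 ± 0.23 (limma adjusted p = 0.0336 and 0.0377, each in 2 of 11 fits without an array), and 0 passed in the other comparisons. Their medians were −0.44 for old_CR against old_AL, 0.34 for old_CR against young_AL and 0.80 for old_AL against young_AL, with summed signal of 3.19 to 3.597 in old_CR, 3.48 to 3.999 in old_AL 2 to 4 and 2.89 to 3.36 in young_AL. On old_AL 1 the macrophage sum was 5.85, but the median deviation of single markers from their means over the 11 arrays was −0.52 there. For the fibroblast markers below that deviation was 0.96. On 12 arrays the first and last macrophage medians were −0.22 and 0.47. Aqp4, a water channel gene listed for glia of the central nervous system, was higher in old_CR than in old_AL by 1.004 ± 0.16 and than in young_AL by 1.49 ± 0.15 (limma adjusted p = 0.0363 and 0.00490). The first Aqp4 difference passed in 3 of 11 fits without an array and not on 12 arrays (limma adjusted p = 0.382). The second passed on 12 arrays too (limma adjusted p = 0.0197) and in 11 of 11 fits without an array. In the remaining lists, Col1a1 (fibroblasts) fell by 0.92 ± 0.15 in old_CR against young_AL (limma adjusted p = 0.0201, 6 of 11 fits without an array), Pdgfrb (pericytes) fell by 0.46 ± 0.086 in old_CR against old_AL (adjusted p = 0.0459, limma, 1 of 11), and Des (smooth muscle) was higher in old_AL than in young_AL by 0.41 ± 0.087 (limma adjusted p = 0.0421, 2 of 11), with a difference of −0.14 on 12 arrays. The fibroblast list was mixed. Every old_CR array was below every young_AL array for Col1a1, Col1a2 and Col3a1, while for Dcn, Lum and Pdgfra these groups overlapped. Of all genes, 15.8% did not overlap in this comparison and 10.2% were lower in old_CR. Summed signal of the fibroblast markers was 4.75 to 5.25 in old_CR, 5.01 to 5.45 in old_AL 2 to 4 and 5.30 to 5.63 in young_AL, and 6.97 on old_AL 1. Adipoq (fat cells) was well above background on all 4 old_CR arrays, on old_AL 3 and on 0 of the 4 young_AL arrays. It met the filter on dim probes only through old_CR, the group where it read high. Its call as higher in old_CR than in young_AL (limma adjusted p = 0.0269, 3 of 11 fits without an array) is therefore no independent support for a difference. No endothelial, erythroid or skeletal muscle marker passed on 11 arrays in these 3 comparisons. Yet all 4 erythroid markers were lower in every old_CR array than in old_AL 2 to 4, as were 15.3% of all genes. Their summed signal was 7.84 to 7.96 in old_CR, 8.09 to 8.63 in old_AL 2 to 4 and 7.75 to 8.35 in young_AL. Whether blood content differed was not tested. With 12 arrays the only call left among these marker genes was that of Aqp4 for old_CR against young_AL.

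**Figure D4:**
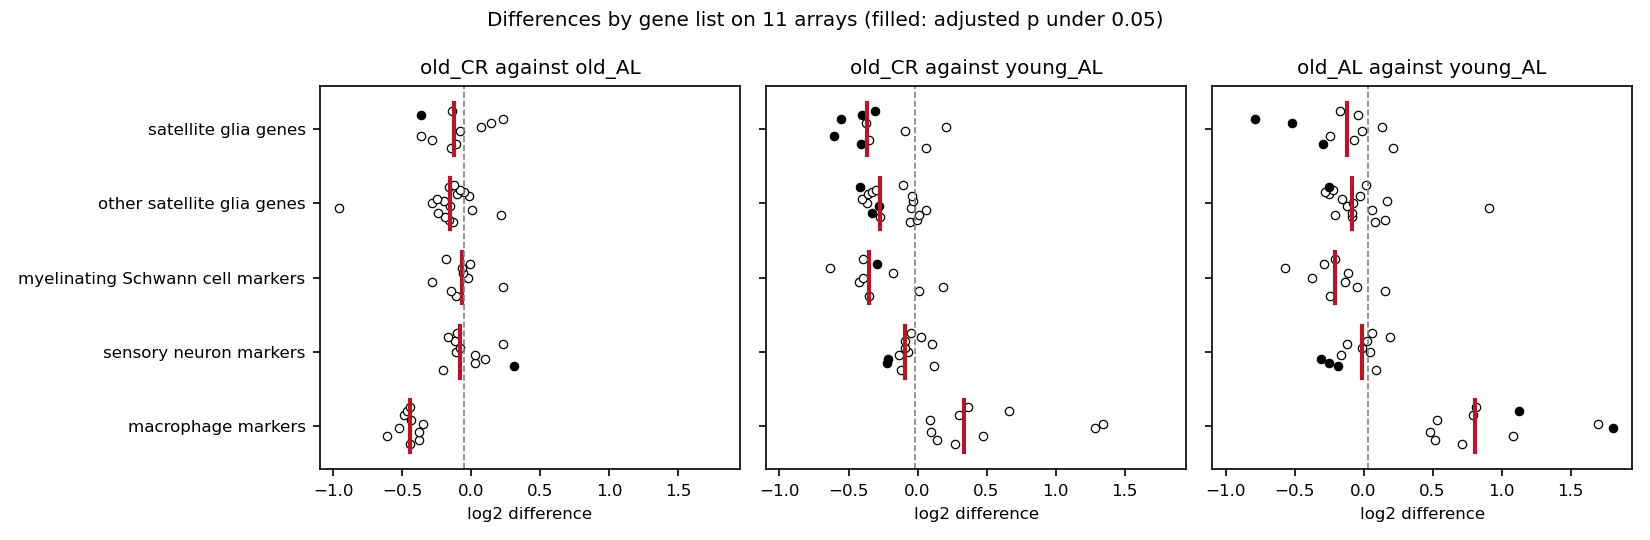
Log2 differences on 11 arrays (horizontal axis) of the single genes of 5 lists (rows) in the 3 comparisons (panels), filled where the adjusted p was under 0.05, with the list median as a red bar and the median of all genes as a dashed line. The median of the 10 satellite glia genes lies at −0.12 for old_CR against old_AL, −0.36 for old_CR against young_AL and −0.12 for old_AL against young_AL, and that of the macrophage markers at −0.44, 0.34 and 0.80. With old_AL 1 included, the first and last were −0.071 and −0.32 for the 10 genes and −0.22 and 0.47 for the macrophage markers.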

How the data were processed

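Total RNA of L6 dorsal root ganglia was measured on 12 one-colour arrays. Each deposited file holds linear spot intensities, made from each scan with Agilent Feature Extraction 10.7, per the submitters' processing notes, and already background-subtracted per the file headers, with no scaling between arrays. The authors' deposited table of the series held the same intensities (largest difference 0) and was an alternative source. Of 30367 gene probes, 17998 matched 15154 symbols by accession in RefSeq's gene table (GRCr8), which served for names, as its promoter table did for sequence, because the files carry an older build's tag.

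The value analysed was log2 of the processed signal minus that of the array's 75th percentile. Control spots (4259 of each array, beside 58717 gene spots) were left out, outlier spots were set to missing, and spots of a probe were averaged. The outlier flag fell on a spot of Gja1 on old_CR 3 and old_AL 1, of Sox10 on young_AL 4 and of Scrg1 on old_AL 1. Probes counted as well above background where at least a share of 0.5 of their spots did, and those that did so on at least 4 fitted arrays were kept. A gene was read at its brightest probe. Groups were compared with limma 3.58.1 (lmFit, eBayes) under R 4.3.3 (files read with data.table, version 1.17.8), with Benjamini-Hochberg adjustment over all genes and a threshold of 0.05. The fit was tested on simulated data. Signal over background and the number of arrays, not counting depth, limit the precision. The p-values measure the spread between arrays, since no label ties an array to a rat.

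The genes, the gene lists and the choice to leave out old_AL 1 were made with earlier results of these data known. The genes named are the 10, list members that passed, and up to 3 of a list with the smallest p. Lists are described by counts and medians without a test of their own. Array numbers repeat across groups in the labels, and over 10 pairs of arrays with the same number the correlation of deviations from the group means was −0.089 to 0.087, so the numbers did not pair arrays. Alternatives were all 12 arrays, quantile normalization, median centring, normexp background correction (offset 50), 2 other filters on dim probes, 2 other rules for a gene's probes, the series table, a fit of only the compared groups, an intensity trend, array weights, a replicate block, and each array left out.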

Additional observations from a re-analysis of the deposited data

Results flagged for a closer look

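Dixon's test of the highest or lowest array within a group, at its 95% critical value, marked 5 of 33 groups of 4 (11 probes in 3 groups), and chance marks about 1 in 20. Of these, 3 are values of old_AL 1, the array that differed from the rest of the set: the dimmer Slc1a3 probe at −6.08, Gja1 at −3.15 and Cdh19 at −4.17, each below old_AL 2 to 4. For Gja1 and Cdh19 the sign of the difference between old_CR and old_AL turned with that array, to 0.30 and 0.34 on 12 arrays. In old_CR, array 4 was low for Scrg1, at −2.42, against −2.06, −2.08 and −2.07 on the other 3, and without it Scrg1 no longer passed for old_CR against young_AL. That call also ended on leaving out any other old_CR array, old_AL 3 or young_AL 1, 2 or 3. In young_AL, array 4 was low for the dimmer Slc1a3 probe, at −4.12, against −3.97, −3.97 and −3.96.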

How the results depend on the processing

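The number of the 10 genes called depended on the arrays and the model. On all 12 arrays 0 were called in each comparison, and with the replicate block 0, 0 and 0. A fit of only the groups compared called 0 for old_AL against young_AL and 0 for old_CR against old_AL. Normexp called 2 for old_CR against old_AL, where it called 4732 of all genes against 222, and no filter on dim probes called 3 for old_CR against young_AL, where it called 226 of all genes against 503. Leaving out an array gave 0 to 1 genes for old_CR against old_AL, 2 to 7 for old_CR against young_AL and 0 to 2 for old_AL against young_AL, while the calls over all genes in these fits ran from 1 to 924, 42 to 862 and 70 to 402. The causes of these changes were not tested. The median residual SD was 0.36 on 12 arrays and 0.10 on 11. Signs that turned were of differences that passed in no setting, except Cdh19 for old_AL against young_AL, which passed in 1. On 12 arrays Cdh19 was −0.27 for old_AL against young_AL, and for old_CR against old_AL Glul was −0.15, Gja1 0.30, Erbb3 0.0084 and Cdh19 0.34. For old_CR against old_AL, Gja1 was 0.019 after median centring and Glul −0.022 with array weights. For old_AL against young_AL, Gja1 was 0.013 after normexp and 0.074 with array weights, and Slc1a3 was 0.074 with the mean of its probes. Across left-out arrays Gja1 ranged from −0.087 to 0.032 and Erbb3 from −0.15 to 0.012 for old_AL against young_AL, and Glul from −0.093 to 0.18 for old_CR against old_AL. Over the alternatives the calls among all genes ran from 0 to 4732 for old_CR against old_AL (222 on 11 arrays), 4 to 1918 for old_CR against young_AL (503) and 4 to 3838 for old_AL against young_AL (676). The share of these calls that were higher for old_CR against old_AL was 25.2%, and it became 69.5% with quantile normalization, 86.7% with median centring and 10.69% with normexp. For old_AL against young_AL it was 61.5%, and with these 22.9%, 13.1% and 86.3%. Median centring shifted the median gene by 0.10 and −0.10 in these comparisons, and quantile normalization by 0.10 in the first. The called differences of the 10 genes kept their sign in all 24 alternatives, but some of these could not change a difference. Those included the series table, the intensity trend, the fit of only the compared groups and leaving out an array of the third group. They also included the 2 other filters on dim probes and, for the 9 genes with 1 probe, the 2 other rules for a gene's probes. For old_CR against young_AL the fit of 12 arrays could not change it either. With 3 or 4 arrays a group, differences within the spread between arrays could not be resolved.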
